A study of Homo sapiens with 6 samples.

Results

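The genes of DNA replication licensing and of the replication fork were followed in SKOV3 cells, a human ovarian carcinoma line, with and without added TIPE2, the protein of the gene TNFAIP8L2. The set holds 44 genes, chosen by name with earlier results of these data known. They were matched through their Ensembl gene identifiers among the 58735 genes listed in the files. All 44 had a mean of at least 1 FPKM (fragments scaled by transcript length and library size) over the 6 libraries and were among the 12538 genes tested. The TIPE2 group has 3 RNA-seq libraries of cells that received a lentivirus carrying human TIPE2 cDNA, and the Vector group has 3 libraries of cells given the empty vector. Per the labels, puromycin selection produced stable cells. Neither the promoter of the transgene nor whether the cells were a pool or a clone is given in the sources used here. Each library is labelled a biological replicate, and whether each had its own transduction is not stated. The p-values therefore reflect the spread between these samples, part of which may be technical.

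TNFAIP8L2 was at 58.4, 47.2 and 48.8 FPKM in TIPE2 1, 2 and 3, against 0, 0.0476 and 0 FPKM in Vector 1, 2 and 3, as the group labels say. Each library held between 15983317 and 18583473 fragments assigned to genes, with 87 to 4569 fragments per replication gene and library. No label gives a batch or a date. Of 7 carcinoma markers 6 passed the 1 FPKM filter, and MUC16 was near 0 in every library. Summed carcinoma markers were at 1147 to 1410 FPKM in TIPE2, against 1334 to 1461 FPKM in Vector. None of the 6 passed the adjusted limma threshold, though KRT7 averaged 151 ± 13.7 FPKM in TIPE2 and 309 ± 71.8 FPKM in Vector (log2 difference -1.01, limma adjusted p = 0.343) and KRT18 71.6 ± 4.23 FPKM in TIPE2 and 107 ± 24.2 FPKM in Vector (-0.55, limma adjusted p = 0.743), both without overlap. EPCAM and ERBB2 had higher means in TIPE2 (0.38 and 0.40). Summed leukocyte markers were at 0.0658 to 0.418 FPKM in TIPE2, against 0.0990 to 0.195 FPKM in Vector. Summed endothelial markers were at 0.238 to 0.939 FPKM in TIPE2, against 0.103 to 0.210 FPKM in Vector, nearly all of it PECAM1. Summed fibroblast markers were at 0.838 to 4.62 FPKM in TIPE2, against 0.536 to 1.99 FPKM in Vector. CD3E and CDH5, defining markers of T cells and of endothelium, were at 0 in all 6 libraries. PECAM1 was at 0.939, 0.759 and 0.232 FPKM in TIPE2 1, 2 and 3, against 0.204, 0.210 and 0.103 FPKM in Vector 1, 2 and 3. COL1A1, a fibroblast marker, was at 3.36, 2.60 and 0.720 FPKM, against 0.593, 1.54 and 0.405 FPKM (log2 difference 0.75, limma adjusted p = 0.834). LUM was at 1.11, 0.932 and 0.0598 FPKM, against 0.631, 0.410 and 0.122 FPKM, in the same order of libraries. The part of the other marker levels in the results below was not tested.

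Before S phase the origin recognition complex (ORC), CDC6 and CDT1 load the MCM2-7 helicase onto origins, and geminin blocks CDT1 from loading it again. Origins fire when CDC45 and the GINS complex join MCM2-7 to form the CMG helicase. Polymerase alpha-primase then lays primers, RFC loads the PCNA clamp, polymerases delta and epsilon copy the strands, RPA covers single-stranded DNA, and FEN1 and LIG1 finish Okazaki fragments. Many of these genes are transcribed at the passage from G1 to S phase by E2F factors, whose release from RB follows cyclin D and cyclin E kinase activity. In bulk RNA, fewer cells in S phase and less of these RNAs per cell cannot be told apart.

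The promoter windows show the sequence feature that many of these genes share. RefSeq windows of 300 bases on GRCh38.p14, with 250 bases before the start and 50 after it, were found for 37 of the 44 genes, as 46 windows. MCM4, MCM5, GINS4, POLD3, RPA2, RPA3 and CCNE2 were not matched. An E2F word, meaning TTTCCCGC, TTTCGCGC, TTTGCCGC or TTTGGCGC on either strand, stood in 19 of the 46 windows (41.3%), against 5.20% of the 12962 windows of tested genes and 3.31% of all 35116 windows. Words on opposite strands may overlap, and each was counted. Only these exact words were searched, so a near word such as TTTGGCGG, present in the CDC6 and CDT1 windows, was neither counted nor marked. Shown are the windows of CDC6, CDT1 and E2F1, which had the lowest log2 differences between the groups, of MCM6, which holds 4 words, and of RFC1, which holds none and had a higher mean in TIPE2. They lie at chr17:40287629-40287928 (plus strand), chr16:88803539-88803838 (plus), chr20:33686336-33686635 (minus), chr2:135876394-135876693 (minus) and chr4:39366313-39366612 (minus). Each is written 5′ to 3′ on the gene's own strand, and capitals mark the E2F words:
CDC6: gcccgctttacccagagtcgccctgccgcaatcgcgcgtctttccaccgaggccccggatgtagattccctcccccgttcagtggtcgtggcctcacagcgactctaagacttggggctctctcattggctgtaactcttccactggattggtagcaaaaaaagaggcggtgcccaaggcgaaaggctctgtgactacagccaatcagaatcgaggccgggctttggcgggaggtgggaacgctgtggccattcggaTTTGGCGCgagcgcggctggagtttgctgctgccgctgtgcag
CDT1: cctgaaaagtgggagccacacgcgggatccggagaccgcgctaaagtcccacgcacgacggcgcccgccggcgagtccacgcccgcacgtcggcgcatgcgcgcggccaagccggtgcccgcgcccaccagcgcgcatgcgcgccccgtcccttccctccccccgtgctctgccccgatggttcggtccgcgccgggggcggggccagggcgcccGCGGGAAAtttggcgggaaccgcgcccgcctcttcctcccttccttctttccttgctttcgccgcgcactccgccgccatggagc
E2F1: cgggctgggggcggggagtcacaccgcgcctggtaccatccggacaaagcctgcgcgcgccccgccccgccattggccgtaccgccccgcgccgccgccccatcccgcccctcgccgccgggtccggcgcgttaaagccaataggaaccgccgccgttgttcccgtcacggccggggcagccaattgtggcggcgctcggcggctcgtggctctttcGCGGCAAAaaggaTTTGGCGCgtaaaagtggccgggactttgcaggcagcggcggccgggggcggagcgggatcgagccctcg
MCM6: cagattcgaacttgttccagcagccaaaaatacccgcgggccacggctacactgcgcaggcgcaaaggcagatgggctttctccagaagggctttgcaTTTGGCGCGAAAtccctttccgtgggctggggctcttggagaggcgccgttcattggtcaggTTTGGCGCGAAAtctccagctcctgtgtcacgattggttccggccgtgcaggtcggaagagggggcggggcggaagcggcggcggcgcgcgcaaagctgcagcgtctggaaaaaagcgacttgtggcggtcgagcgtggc
RFC1: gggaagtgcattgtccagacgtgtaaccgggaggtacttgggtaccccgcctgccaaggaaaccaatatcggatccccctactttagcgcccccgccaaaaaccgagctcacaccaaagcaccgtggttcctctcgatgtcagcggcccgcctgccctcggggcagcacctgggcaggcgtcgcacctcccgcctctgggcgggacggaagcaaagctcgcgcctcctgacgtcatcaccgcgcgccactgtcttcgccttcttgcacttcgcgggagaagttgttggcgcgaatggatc

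The word of CDC6 begins 7 bases after the start site, that of CDT1 at -35, and those of E2F1 at -33 and -20. In MCM6 the capitals form 2 blocks, each a TTTGGCGC overlapped by a TTTCGCGC on the other strand. The windows shown are a selection. POLA1, not shown, holds a word at -137 and had a log2 difference of 0.16. ORC1, also not shown, holds no exact word and had a log2 difference of -0.37. Of the 26 words found in members, 20 lay within 100 bases of the start. Words were found for 4 of the MCM2-7 genes (MCM2, MCM3, MCM6 and MCM7), each with 2 or more, while 5 of the 46 member windows (10.9%) and 0.247% of the windows of tested genes held 2 or more. In the ORC, by contrast, the one window with an exact word was that of ORC3. The ORC1 window holds ATTGGCGC and the RFC1 window GTTGGCGC, near words that were not searched. A CCAAT box (CCAAT, either strand) stood in 56.5% of the member windows and 34.5% of those of tested genes. A GC box (GGGCGG, either strand) stood in 73.9% and 68.2%. The cell cycle homology word TTTGAA, known from promoters of late cell cycle genes, was in 0 member windows and in 10.1% of those of tested genes. These matches describe letters in the windows and were not tested as binding sites.

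Most of the replication genes had lower means in TIPE2 cells, but none of them passed the test. Of the 44 genes 41 (93.2%) had a lower mean in TIPE2, against 51.1% of all tested genes. The 44 were chosen with earlier results of these data known, so this share describes them and is not an independent test. The median difference was -0.19 on the log2(FPKM + 1) scale, TIPE2 minus Vector, and -0.01 over all tested genes. The values were already scaled between libraries, which by itself holds the median and the share over all tested genes near no difference. By limma with Benjamini-Hochberg adjustment, 0 of the 44 passed an adjusted p of 0.05, and 0.0239% of all tested genes did, 3 genes in all (0.00798% lower and 0.016% higher in TIPE2). Adjusted p of the 44 lay between 0.746 and 0.988, with standard errors of 0.09 to 0.25. At an unadjusted limma p under 0.05, CDT1 and RFC3 were lower (4.55% of members, against 2.97% of all tested genes), and no member was higher (3.01% of all). Every TIPE2 library lay below every Vector library for CDT1, GINS4, RFC3, RFC5 and PRIM1 (11.4%, against 5.31% of all tested genes). No member had all TIPE2 libraries above all Vector libraries (6.18% of all). The genes are not independent of one another, and all of these counts rest on the same 6 libraries.

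**Figure D1:**
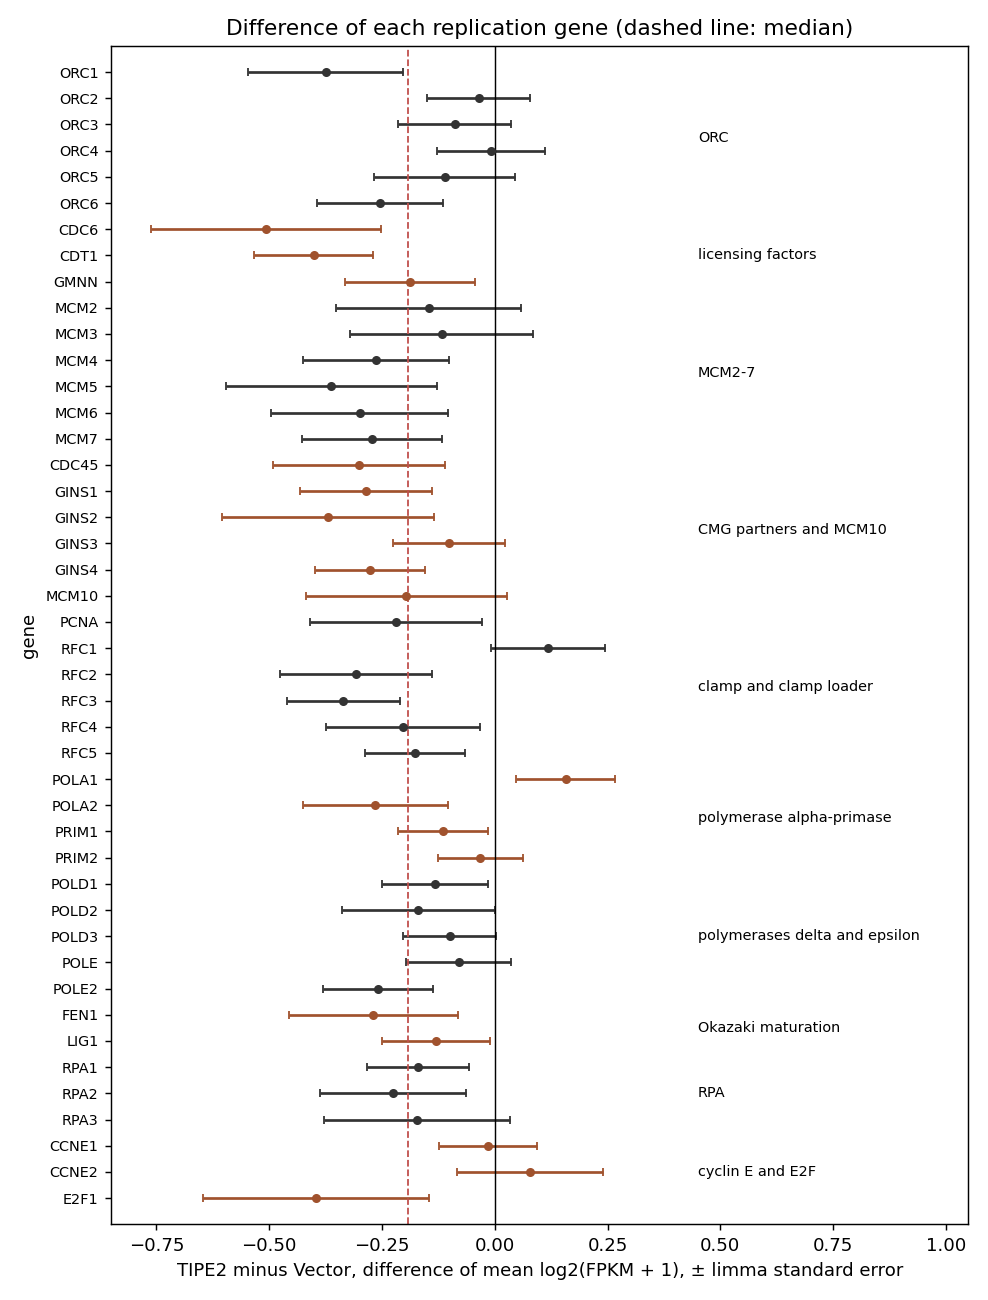
Difference of mean log2(FPKM + 1), TIPE2 minus Vector, for each of the 44 genes (point) with its limma standard error (bar), by complex; the dashed line is the median of the 44. Of the points 41 lie below 0, and those of RFC1, POLA1 and CCNE2 lie above it.

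The licensing factors had the lowest group median, -0.40 over CDT1, CDC6 and GMNN. With 1 library left out it lay between -0.47 (without Vector 2) and -0.29 (without Vector 1). CDT1, which brings MCM2-7 to the origin, was at 16.2, 17.2 and 18.9 FPKM in TIPE2 1, 2 and 3, against 27.3, 21.1 and 21.8 FPKM in Vector 1, 2 and 3. Its 3 TIPE2 libraries all lay below the 3 Vector libraries. The log2 difference was -0.40 (SE 0.13, limma adjusted p = 0.746, unadjusted p = 0.0163). CDC6, the ATPase that works with ORC and CDT1, had the lowest log2 difference of the 44. It was at 8.45, 8.70 and 16.5 FPKM in TIPE2 1, 2 and 3, against 15.4, 12.7 and 19.4 FPKM in Vector 1, 2 and 3. TIPE2 1 and 2 lay below every Vector library, and TIPE2 3 lay between Vector 1 and Vector 3. The difference was -0.51 (SE 0.25, limma adjusted p = 0.834). GMNN encodes geminin, the inhibitor of CDT1. Its levels were 18.2, 19.5 and 22.6 FPKM in TIPE2 1, 2 and 3, against 27.3, 20.4 and 21.7 FPKM in Vector 1, 2 and 3, so TIPE2 3 lay above both Vector 2 and Vector 3. The log2 difference for GMNN was -0.19 (SE 0.14, limma adjusted p = 0.844).

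CDT1 and GMNN were near each other in level, and their order differed by library. The ratio of CDT1 to GMNN in FPKM was 0.888, 0.882 and 0.834 in TIPE2 1, 2 and 3, against 1.00, 1.03 and 1.01 in Vector 1, 2 and 3. In FPKM, GMNN was thus the higher of the pair in each TIPE2 library, while CDT1 was higher by a small margin in each Vector library. Which gene is the higher depends on the merged exon lengths, 3336 bases for CDT1 and 2476 for GMNN. This ratio was singled out after its values were seen, so no test of it is given.

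**Figure D2:**
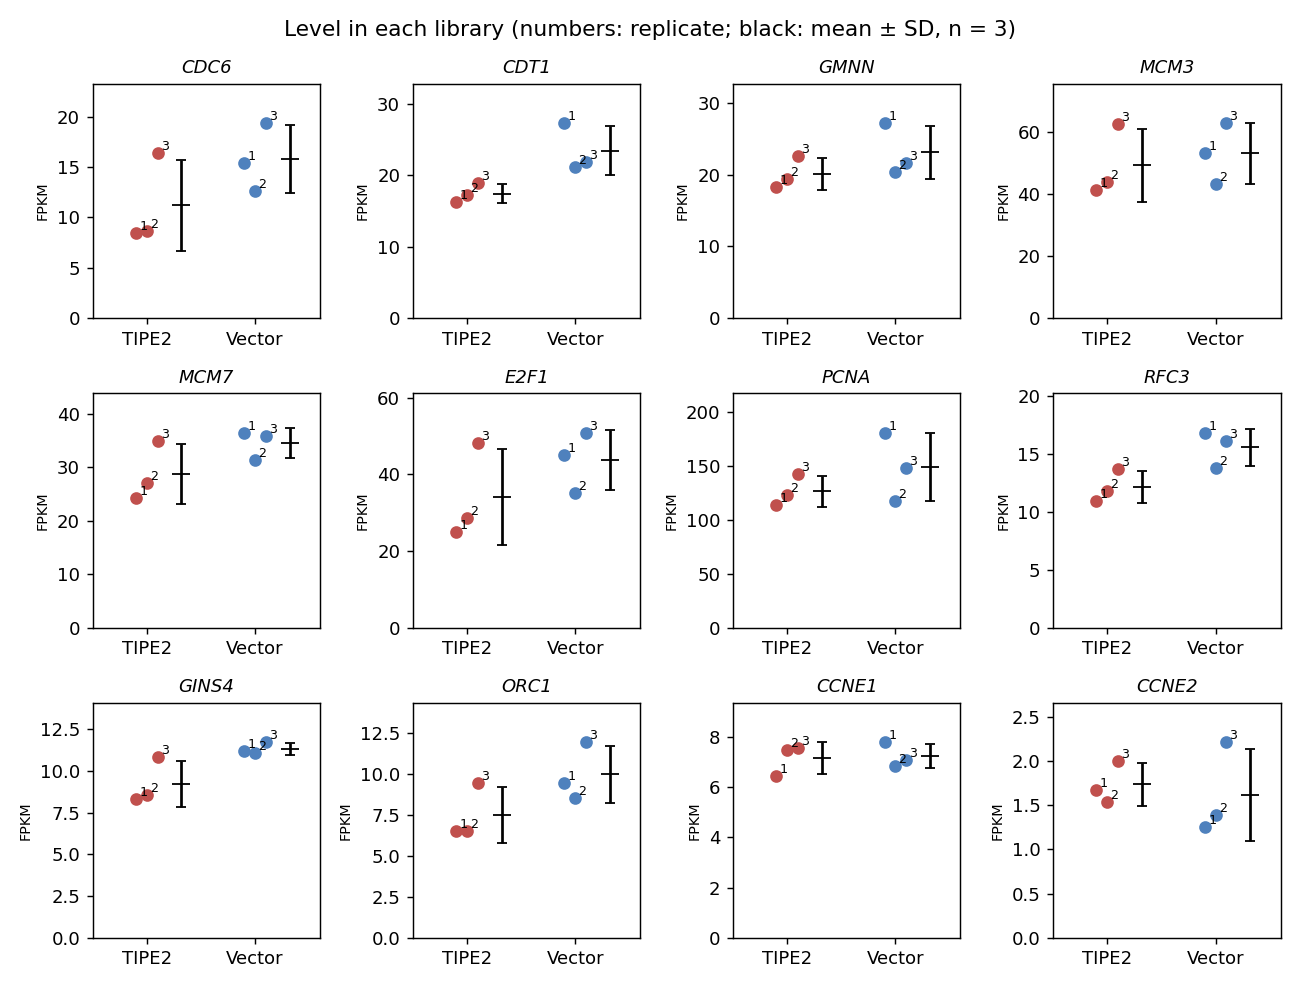
FPKM in each library for 12 of the genes, TIPE2 (red) left of Vector (blue), with the replicate number beside each point and the mean ± SD (n = 3) in black. For CDT1, RFC3 and GINS4 the groups do not overlap, while for CDC6, E2F1 and MCM3 the library TIPE2 3 lies among the Vector libraries.

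All 6 ORC genes had a lower mean in TIPE2, with a median log2 difference of -0.10. That median lay between -0.05 (without TIPE2 2) and -0.20 (without Vector 2) when 1 library was left out, and was -0.19 without TIPE2 3, -0.06 without Vector 1 and -0.05 without Vector 3. ORC1, the subunit whose protein is removed after G1 in human cells, had the lowest log2 difference of the 6, -0.37 (SE 0.17, limma adjusted p = 0.834). Its levels were 6.51, 6.52 and 9.44 FPKM in TIPE2 1, 2 and 3, against 9.46, 8.51 and 11.9 FPKM in Vector 1, 2 and 3. TIPE2 3 overlapped the Vector range and the other two TIPE2 libraries did not. ORC6 averaged 8.40 ± 1.44 FPKM in TIPE2 and 10.2 ± 1.10 FPKM in Vector (SD, n = 3 each). ORC3, the subunit with the highest FPKM, was at 11.2, 9.89 and 12.4 FPKM in TIPE2 1, 2 and 3, against 12.5, 10.6 and 12.8 FPKM in Vector 1, 2 and 3, which overlap. Its log2 difference was -0.09 (SE 0.13, limma adjusted p = 0.881). ORC2 averaged 6.38 ± 0.693 FPKM in TIPE2 and 6.56 ± 0.472 FPKM in Vector. ORC4 averaged 5.38 ± 0.783 FPKM in TIPE2 and 5.39 ± 0.308 FPKM in Vector, the smallest gap of the 44. ORC5, the subunit with the lowest level, averaged 3.63 ± 0.660 FPKM in TIPE2 and 4.0 ± 0.754 FPKM in Vector (SD, n = 3 each).

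The 6 genes of the MCM2-7 helicase had a median log2 difference of -0.27, all 6 with a lower mean in TIPE2. MCM7, with the smallest p of the 6, was at 24.2, 27.1 and 35.0 FPKM in TIPE2 1, 2 and 3, against 36.5, 31.4 and 35.9 FPKM in Vector 1, 2 and 3. TIPE2 1 and 2 lay below the Vector range and TIPE2 3 within it. The difference was -0.27 (SE 0.16, limma adjusted p = 0.834). MCM3 had the highest FPKM of the 6 in all 6 libraries. It was at 41.1, 43.7 and 62.6 FPKM in TIPE2 1, 2 and 3, against 53.1, 43.3 and 62.9 FPKM in Vector 1, 2 and 3, and the groups overlapped. The log2 difference of MCM3 was -0.12 (SE 0.20, limma adjusted p = 0.901). MCM5, with the lowest mean level of the 6, averaged 15.0 ± 5.25 FPKM in TIPE2 and 19.1 ± 3.61 FPKM in Vector, a difference of -0.36. MCM6 averaged 20.1 ± 4.74 FPKM in TIPE2 and 24.8 ± 5.10 FPKM in Vector (-0.30). MCM4 averaged 28.1 ± 4.56 FPKM in TIPE2 and 33.9 ± 5.42 FPKM in Vector (-0.26), and MCM2 averaged 18.7 ± 5.13 FPKM in TIPE2 and 20.6 ± 3.89 FPKM in Vector (-0.15, SD and n = 3 each). The spread of mean FPKM within the hexamer was 3.00-fold. It depends on the merged exon lengths, such as 7338 bases for MCM5 and 3650 for MCM3. In fragments, MCM5 had 1549 to 2740 per library and MCM2 1374 to 2008. The part of length in this spread was not tested.

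The partners that turn MCM2-7 into the CMG helicase also had lower means, 6 of 6 with a median of -0.28. With 1 library left out that median lay between -0.40 (without TIPE2 3) and -0.19 (without TIPE2 1). GINS4 was at 8.32, 8.55 and 10.8 FPKM in TIPE2 1, 2 and 3, against 11.2, 11.1 and 11.7 FPKM in Vector 1, 2 and 3. The groups did not overlap, though TIPE2 3 came close to Vector 2. Its difference was -0.28 (SE 0.12, limma adjusted p = 0.827). GINS1, the GINS subunit with the highest level, was at 14.6, 16.5 and 15.9 FPKM in TIPE2 1, 2 and 3, against 23.8, 18.3 and 16.5 FPKM in Vector 1, 2 and 3. Vector 1 was the high library here, and TIPE2 2 and Vector 3 were close to equal. GINS1 had a log2 difference of -0.29 (SE 0.15, limma adjusted p = 0.834). CDC45, the helicase cofactor, averaged 14.3 ± 3.13 FPKM in TIPE2 and 17.8 ± 3.58 FPKM in Vector (-0.30). GINS2 averaged 7.33 ± 2.28 FPKM in TIPE2 and 9.74 ± 2.53 FPKM in Vector (-0.37), and GINS3 averaged 3.83 ± 0.327 FPKM in TIPE2 and 4.19 ± 0.616 FPKM in Vector (-0.10). MCM10, needed to activate the assembled helicase, averaged 5.06 ± 1.68 FPKM in TIPE2 and 5.86 ± 1.34 FPKM in Vector (-0.20, SD and n = 3 each).

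Of the clamp and its loader, 5 of 6 genes had a lower mean in TIPE2 (median log2 difference -0.21; -0.11 without Vector 1, -0.35 without Vector 2 and -0.33 without TIPE2 3). RFC3, a small subunit of the loader, was at 11.0, 11.8 and 13.7 FPKM in TIPE2 1, 2 and 3, against 16.9, 13.8 and 16.1 FPKM in Vector 1, 2 and 3. The highest TIPE2 library lay just under the lowest Vector library, and the log2 difference was -0.34 (SE 0.13, limma adjusted p = 0.798, unadjusted p = 0.0284). PCNA, the sliding clamp, had the highest level of all 44 genes, above 97.8% of tested genes. It was at 114, 124 and 142 FPKM in TIPE2 1, 2 and 3, against 181, 118 and 148 FPKM in Vector 1, 2 and 3. Vector 1 stood highest, and Vector 2 lay between TIPE2 1 and TIPE2 2. The difference was -0.22 (SE 0.19, limma adjusted p = 0.848). RFC5 averaged 18.8 ± 0.513 FPKM in TIPE2 and 21.4 ± 1.98 FPKM in Vector, without overlap between the libraries. RFC2 averaged 22.4 ± 2.89 FPKM in TIPE2 and 28.1 ± 5.50 FPKM in Vector (-0.31), and RFC4 averaged 17.0 ± 3.56 FPKM in TIPE2 and 19.6 ± 2.96 FPKM in Vector (-0.20). RFC1, the large subunit, had the higher mean in TIPE2, with 12.0 ± 1.40 FPKM in TIPE2, against 11.0 ± 1.19 FPKM in Vector (0.12, SE 0.13, limma adjusted p = 0.853, SD and n = 3 each). Per merged exon length (1471 bases for PCNA and 6719 for RFC1), PCNA exceeded RFC1 by a ratio of 12.0.

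Polymerase alpha-primase, which starts each strand with an RNA-DNA primer, had the median nearest 0 of the fork complexes (-0.07, 3 of 4 lower). POLA2, the second subunit of the polymerase, was at 1.88, 1.95 and 2.12 FPKM in TIPE2 1, 2 and 3, against 3.48, 1.95 and 2.47 FPKM in Vector 1, 2 and 3. Vector 2 fell inside the TIPE2 range. The log2 difference was -0.26 (SE 0.16, limma adjusted p = 0.834), and 35.1% of its exon length is shared with the low gene AP000944.2 (0.136 FPKM on average). PRIM2, the large primase subunit, showed the smallest spread: 7.11, 6.77 and 7.39 FPKM in TIPE2 1, 2 and 3, against 7.31, 7.22 and 7.25 FPKM in Vector 1, 2 and 3. The groups overlapped, with a difference of -0.03 (SE 0.09, limma adjusted p = 0.940). PRIM1, the catalytic primase subunit, averaged 5.26 ± 0.246 FPKM in TIPE2 and 5.78 ± 0.327 FPKM in Vector (-0.11) with no overlap between libraries. POLA1, the catalytic polymerase subunit, had the highest log2 difference of the 44, at 5.96 ± 0.120 FPKM in TIPE2, against 5.27 ± 0.638 FPKM in Vector (0.16, SE 0.11, limma adjusted p = 0.842, SD and n = 3 each).

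The 5 genes of polymerases delta and epsilon all had a lower mean (median log2 difference -0.13). Dropping Vector 2 moved this median to -0.20, and dropping TIPE2 3 moved it to -0.19. It shrank to -0.09 when TIPE2 1 was dropped, and to -0.10 when either Vector 1 or Vector 3 was dropped. POLE2, the second subunit of polymerase epsilon, was at 4.86, 4.47 and 5.74 FPKM in TIPE2 1, 2 and 3, against 6.36, 5.54 and 6.69 FPKM in Vector 1, 2 and 3. TIPE2 3 overlapped Vector 2. The difference was -0.26 (SE 0.12, limma adjusted p = 0.834). POLD2, a small subunit of polymerase delta with the highest level of the 5, was at 28.0, 31.9 and 38.0 FPKM in TIPE2 1, 2 and 3, against 44.0, 31.1 and 35.6 FPKM in Vector 1, 2 and 3, again with overlap. Its difference was -0.17 (SE 0.17, limma adjusted p = 0.852). The catalytic subunit of polymerase delta, POLD1, averaged 17.8 ± 1.57 FPKM in TIPE2 and 19.6 ± 1.62 FPKM in Vector. POLE, its counterpart in polymerase epsilon, averaged 6.19 ± 0.328 FPKM in TIPE2 and 6.62 ± 0.813 FPKM in Vector, and POLD3 averaged 6.77 ± 0.139 FPKM in TIPE2 and 7.35 ± 0.629 FPKM in Vector (SD, n = 3 each).

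FEN1, the flap nuclease of Okazaki fragments, had the second highest level of the 44 genes. It was at 53.2, 59.9 and 66.4 FPKM in TIPE2 1, 2 and 3, against 93.8, 62.4 and 63.8 FPKM in Vector 1, 2 and 3. Vector 1 was far above the other libraries, and TIPE2 3 exceeded Vector 2 and Vector 3. The log2 difference was -0.27 (SE 0.19, limma adjusted p = 0.842). LIG1, the ligase that seals the fragments, averaged 16.2 ± 1.32 FPKM in TIPE2 and 17.8 ± 1.94 FPKM in Vector (-0.13, SD and n = 3 each). The median of the pair was -0.20, and -0.06 without Vector 1.

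The 3 subunits of RPA had a median log2 difference of -0.17, with 3 of 3 means lower. The median was -0.08 without Vector 1, -0.11 without TIPE2 1, -0.27 without Vector 3, -0.29 without Vector 2 and -0.31 without TIPE2 3. RPA1, the large DNA-binding subunit, was at 20.8, 23.0 and 24.7 FPKM in TIPE2 1, 2 and 3, against 27.0, 24.6 and 25.7 FPKM in Vector 1, 2 and 3, and TIPE2 3 just overlapped Vector 2. RPA1 had a log2 difference of -0.17 (SE 0.11, limma adjusted p = 0.842). RPA2, the subunit phosphorylated under replication stress, was at 31.0, 34.0 and 38.5 FPKM in TIPE2 1, 2 and 3, against 49.8, 35.6 and 37.0 FPKM in Vector 1, 2 and 3. Here too Vector 1 was the high library. RPA2 had a log2 difference of -0.22 (SE 0.16, limma adjusted p = 0.842). RPA3, the smallest subunit, averaged 5.22 ± 1.12 FPKM in TIPE2 and 6.10 ± 1.94 FPKM in Vector (-0.17, SD and n = 3 each).

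Among the regulators of S-phase entry, E2F1 had a lower mean in TIPE2, and the means of the cyclin E genes lay near those of Vector. The median of the 3 was -0.01 (2 of 3 lower), between -0.05 (without TIPE2 3) and 0.05 (without TIPE2 1) with 1 library left out. With genes under a mean of 5 FPKM left out, which removes CCNE2, the median of E2F1 and CCNE1 was -0.21. E2F1, an activating E2F factor, was at 24.9, 28.7 and 48.3 FPKM in TIPE2 1, 2 and 3, against 45.1, 35.2 and 50.9 FPKM in Vector 1, 2 and 3. As with CDC6, TIPE2 1 and 2 lay below every Vector library and TIPE2 3 lay between Vector 1 and Vector 3. The difference was -0.40 (SE 0.25, limma adjusted p = 0.834). CCNE1, encoding cyclin E1, was at 6.45, 7.49 and 7.57 FPKM in TIPE2 1, 2 and 3, against 7.79, 6.86 and 7.08 FPKM in Vector 1, 2 and 3, with a difference of -0.01 (SE 0.11, limma adjusted p = 0.976). The cyclin E1 ranges overlapped throughout. CCNE2, encoding cyclin E2, was at 1.67, 1.54 and 2.00 FPKM in TIPE2 1, 2 and 3, against 1.25, 1.39 and 2.21 FPKM in Vector 1, 2 and 3, with a difference of 0.08 (SE 0.16, limma adjusted p = 0.915). CCNE2 shares 37.0% of its exon length with INTS8 on the opposite strand, which averaged 6.94 FPKM, and whether the fragments were counted by strand is not given in the sources used here. Its level is therefore uncertain.

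**Figure D3:**
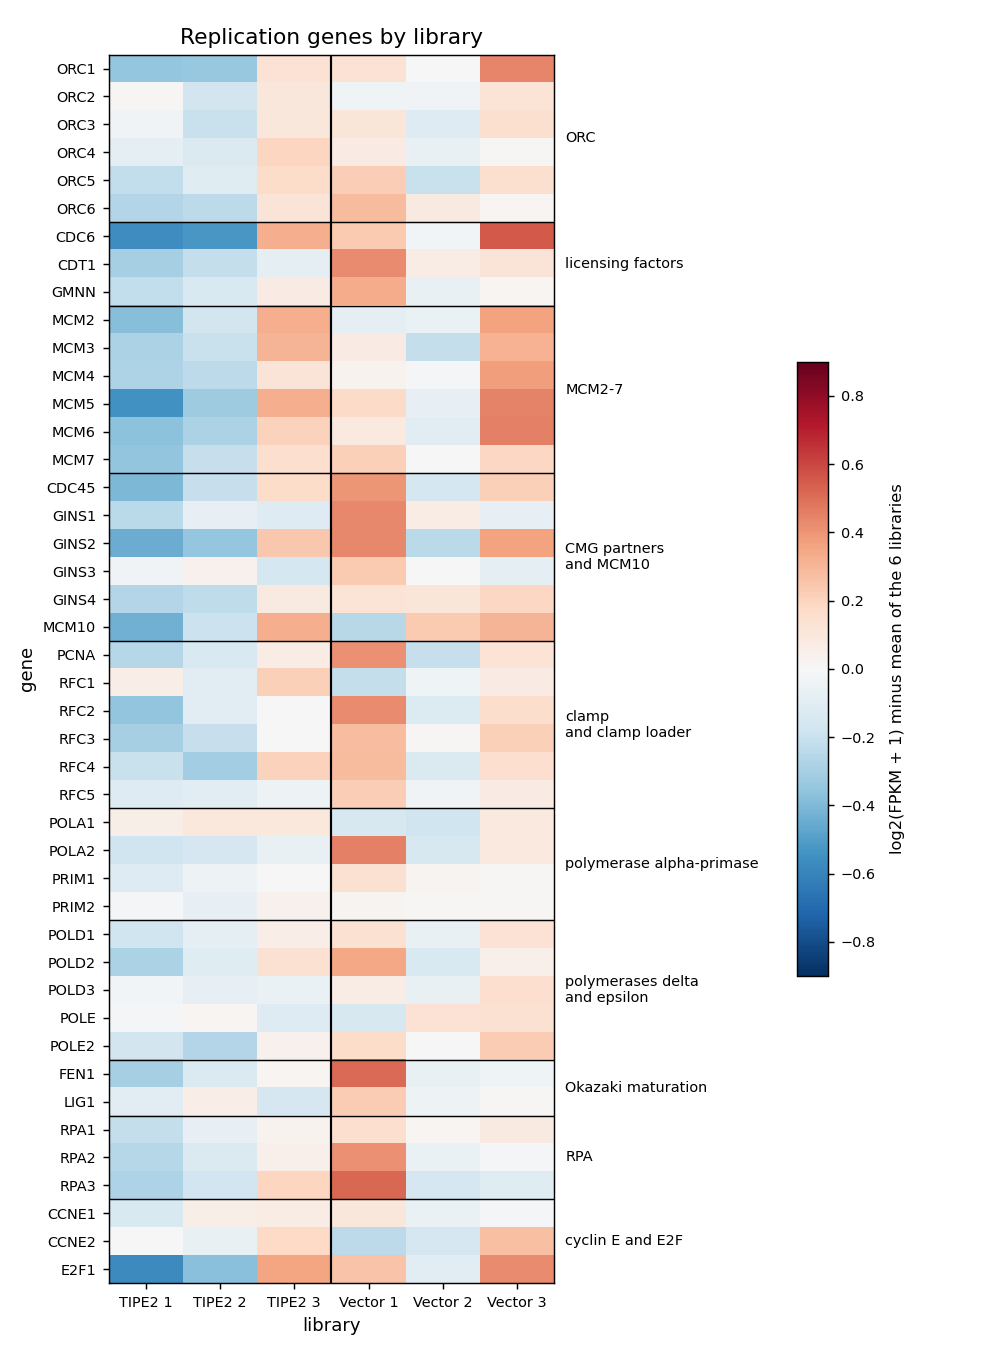
Each gene's log2(FPKM + 1) in each library minus its mean over the 6 libraries, by complex, with the TIPE2 libraries left of the line and the Vector libraries right of it (red higher, blue lower). TIPE2 1 and TIPE2 2 are mostly blue, while TIPE2 3 is red for most genes, as Vector 1 and Vector 3 are.

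Within the TIPE2 group the libraries were not alike. TIPE2 3 was the highest of the 3 TIPE2 libraries for 39 of the 44 genes, and TIPE2 1 was the lowest of all 6 libraries for 31. Set against TIPE2 1, TIPE2 3 was higher for 40 of 44 genes with a median log2 difference of 0.30, and of 0.58 over MCM2-7. Over all tested genes the median was 0.01, which the scaling between libraries holds near 0. TIPE2 3 and Vector 1 each stood apart within their group over all genes with at least 10 summed fragments. There chi-square of fragments per degree of freedom was 35.7 between TIPE2 3 and TIPE2 1 and 25.25 between TIPE2 3 and TIPE2 2. Between TIPE2 1 and TIPE2 2 it was 6.09. In the Vector group it was 34.2 between Vector 1 and Vector 2 and 38.8 between Vector 1 and Vector 3. Between Vector 2 and Vector 3 it was 12.6. Among the Vector libraries, Vector 2 was the lowest for 34 genes and the highest of all 6 for none. Vector 1 was the highest of the 6 for 24 genes, among them all 3 RPA genes, FEN1, LIG1 and 5 of the 6 clamp and loader genes. Vector 3 was the highest for 15, among them 5 of the 6 MCM2-7 genes. Over all 12538 tested genes Vector 1 was the highest of the 6 libraries for 3750, Vector 3 for 1917 and Vector 2 for 1303. The lowest of the 6 was TIPE2 1 for 3044 of them and Vector 1 for 3713. Within the groups, TIPE2 3 was the highest TIPE2 library for 5371 and Vector 2 the lowest Vector library for 3802. The mean centred log2 level of the 44 genes was -0.23, -0.16 and 0.10 in TIPE2 1, 2 and 3, against 0.18, -0.05 and 0.16 in Vector 1, 2 and 3. Without TIPE2 3 the median difference of the 44 was -0.30 and 15 genes (34.1%) were lower at an unadjusted limma p under 0.05, against 6.49% of all tested genes in that fit. Without Vector 2 they were 7 (15.9%, against 2.62%). Without Vector 1 the median was -0.11 and 1 gene was lower at that p (2.27%, against 3.24%). Without TIPE2 1 or TIPE2 2 there were 0, against 1.63% and 1.85% of all tested genes. The MCM2-7 median was -0.40 without TIPE2 3, -0.17 without TIPE2 1 and -0.14 without Vector 3. No member passed the adjusted threshold in any of these fits.

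A list of 22 mitotic and proliferation genes, set beside the replication genes, ranked the libraries differently. Summed FPKM of MCM2-7 was 133, 145 and 202 in TIPE2 1, 2 and 3, against 181, 160 and 217 in Vector 1, 2 and 3. Summed FPKM of the mitotic list was 915, 983 and 830 in TIPE2 1, 2 and 3, against 1288, 1057 and 744 in Vector 1, 2 and 3. The ratio of the sums was 0.145, 0.147 and 0.243 in TIPE2 1, 2 and 3, against 0.141, 0.151 and 0.292 in Vector 1, 2 and 3. It was thus highest in the library numbered 3 of each group, and the groups overlapped. The mitotic list had a median log2 difference of -0.08 with 14 of 22 genes lower and 0 called by limma. Its median turned to 0.07 without Vector 1 and to 0.02 without TIPE2 3, and was -0.17 without TIPE2 2, -0.04 without Vector 2 and -0.30 without Vector 3.

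**Figure D4:**
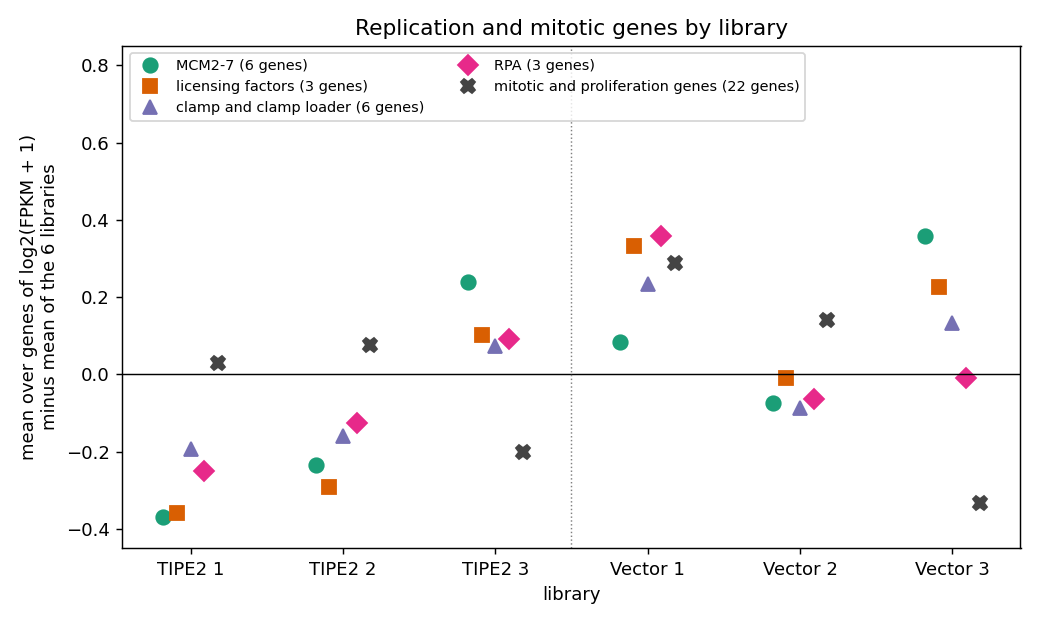
Mean over the genes of each list of log2(FPKM + 1) minus its mean over the 6 libraries, for 4 groups of replication genes and for the mitotic list, with TIPE2 libraries left of the dotted line and Vector libraries right of it. In TIPE2 3 and Vector 3 the MCM2-7 genes stand highest and the mitotic genes lowest, while in Vector 1 all 5 lists are above 0.

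Further genes of the pathway were spread over firing, fork protection, nucleotide supply and their regulators. Of 89 listed genes found in the files, 87 were tested (CCND2 and RNASEH2A had a mean under 1 FPKM); 60 had a lower mean, 27 a higher one, and 0 passed the adjusted limma threshold. The median log2 difference was -0.07. Only CCND1, 1 of the 87, had an unadjusted limma p under 0.05, and it was lower in TIPE2. Of all tested genes 2.97% were lower and 3.01% higher at that p. The groups did not overlap for 6 lower and 3 higher genes of the 87, against 5.31% and 6.18% of all tested genes. The chromatin assembly and methylation list had a median of -0.14 (9 of 10 lower, and -0.09 without Vector 3), with CHAF1A and CHAF1B, subunits of the CAF-1 histone chaperone, at -0.28 and -0.26. The nucleotide supply list had a median of -0.11 (7 of 11 lower). It was 0.03 without Vector 1, -0.05 without TIPE2 1, -0.19 without TIPE2 2 and -0.21 without Vector 2, so its direction turned without Vector 1. In it TK1, the S-phase thymidine kinase, was at 71.0, 87.5 and 91.5 FPKM in TIPE2 1, 2 and 3, against 172, 102 and 86.0 FPKM in Vector 1, 2 and 3. Vector 1 alone stood far above the rest, and the difference was -0.47 (limma adjusted p = 0.834). CTPS1, a CTP synthase, was at -0.22. Other polymerase, loader and processing subunits had a median of -0.11 (12 of 14 lower), with CHTF18 of an alternative clamp loader at -0.25 and POLE3 of polymerase epsilon at -0.24.

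The origin firing list had a median log2 difference of -0.07 (8 of 11 lower, and -0.05 without Vector 2), with RECQL4, a helicase needed for firing, at -0.23 and CDC25A, the phosphatase that activates CDK2, at -0.23. Fork protection and checkpoint genes had a median of -0.03 (8 of 12 lower; between -0.07 without TIPE2 3 and 0.00 without TIPE2 1), and the pair with the smallest p had higher means. ATR, the kinase that answers stalled forks, averaged 2.04 ± 0.245 FPKM in TIPE2 and 1.54 ± 0.383 FPKM in Vector, and RAD17, a loader of the checkpoint clamp, averaged 7.99 ± 0.237 FPKM in TIPE2 and 7.04 ± 0.459 FPKM in Vector (SD, n = 3 each, limma adjusted p = 0.834 for both). Genes of licensing turnover had a median of 0.00 (5 of 10 lower; between -0.01 without Vector 2 and 0.05 without Vector 3), with SKP2 and DTL, ubiquitin ligase subunits that target CDT1, at -0.20 and -0.28. The E2F and RB family list had a median of -0.06 (11 of 19 lower; -0.01 without TIPE2 3 and -0.03 without Vector 1). In it CCND1, encoding cyclin D1, was at 41.5, 44.3 and 37.5 FPKM in TIPE2 1, 2 and 3, against 45.6, 75.3 and 60.9 FPKM in Vector 1, 2 and 3. All TIPE2 libraries lay below all Vector libraries, with a difference of -0.52 (SE 0.19, limma adjusted p = 0.779). CDKN1A, encoding the CDK inhibitor p21, was at -0.26.

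The promoter words and the differences can be set side by side for the 37 genes with a window. The 19 genes with an E2F word had a median log2 difference of -0.26, and 18 of them had a lower mean in TIPE2. The 18 genes without one had a median of -0.17, and 17 of them had a lower mean. This split rests on the exact words searched. Windows of CDC45 and MCM10, counted as without a word, hold the near word TTTGGCGG, which was not searched. Those of ORC1 and RFC1, counted the same way, hold the near words ATTGGCGC and GTTGGCGC. POLA1 was the gene with a word and a higher mean, and RFC1 the gene without a word and with a higher mean. The number of genes with a lower mean was thus much the same in both, and no test of this split is given.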

How the data were processed

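RNA-seq was compared between 3 TIPE2 and 3 Vector libraries. The authors deposited FPKM values for 58735 genes per library, per the file headers. CASAVA 1.7, Bowtie and the mouse build mm8 are named in the submitters' processing notes, but all identifiers are human and found in GENCODE 29 (GRCh38), so the alignment build could not be settled; the counter and strand setting were not given in the sources used. Multiplying FPKM by merged exon length gave whole fragments (100% of values within 0.01), from which depth was taken. The FPKM denominators were 96.3 to 103% of the assigned fragments and equalled median-of-ratios size factors, so the values were already scaled between libraries.

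Genes averaging 1 FPKM or more were fitted on log2(FPKM + 1) with limma 3.58.1 (trend and robust, R 4.3.3), Benjamini-Hochberg adjusted over all 12538 genes, threshold 0.05, and differences are on this scale, which understates the change of low genes. The fit was also run on simulated libraries. Their changed genes differed more than any member did here, and their spread was set rather than taken from these replicates. That run does not show how differences of the members' size are recovered. Other steps ran in Python 3.11.15. Values of every library were given for CDC6, CDT1, GMNN, E2F1, CCNE1, CCNE2 and PCNA whatever their result and, per complex, for the genes with the smallest p and the highest mean; of each further list the pair with the smallest p was named. Members and lists were chosen with earlier results of these data known. Of the members, 18 share exon bases with another gene, and the listed pseudogenes of 6 were at 0 FPKM. Alternatives covered the replicate block, left-out libraries, scaling, filter, pseudocount and limma settings.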

Additional observations from a re-analysis of the deposited data

How the results depend on the processing

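No replication gene passed the adjusted threshold under any of 13 other settings, or without both libraries numbered 3, a setting chosen after seeing the data; the lowest adjusted limma p was 0.189, for CDC6. Leaving out 1 library at a time gave a median of the 44 of -0.30 (without TIPE2 3) to -0.11 (without Vector 1), and -0.30 without both numbered 3. Genes lower at an unadjusted p under 0.05, 2 as fitted, numbered 0 (without TIPE2 1 or TIPE2 2) to 15 (without TIPE2 3) across left-out libraries, 7 without Vector 2, 1 without Vector 1, 9 without both numbered 3 and 4 with the replicate block. These were 34.1% of the 44 without TIPE2 3, against 6.49% of all tested genes in that fit, 20.5% against 5.81% without both numbered 3, 15.9% against 2.62% without Vector 2, 9.09% against 2.84% with the block, 4.55% against 2.97% as fitted, 2.27% against 3.24% without Vector 1, and 0 against 1.63% and 1.85% without TIPE2 1 or TIPE2 2. All tested genes called, 3 as fitted, numbered 1 with the block, 1 without a filter, 1 at a mean of at least 5 FPKM, and 1 to 11 with 1 library left out. Deviations of same-numbered libraries from their group means correlated over genes at 0.15 for number 2 and 0.19 for number 3, each the highest for its TIPE2 library, but at -0.23 for number 1, where TIPE2 1 was nearest to Vector 2 (0.33). With 1 of the pairs negative, the numbers were not taken as pairs, and the median of the 44 with the block was -0.19. Of 612 values of single genes under alternatives 12 reversed, in 8 genes, all close to 0. Over left-out libraries the log2 difference ran from -0.10 to 0.0389 for ORC2, -0.11 to 0.0522 for ORC4, -0.35 to 0.00744 for MCM2, -0.30 to 0.0110 for MCM3, -0.31 to 0.0418 for RPA3, -0.0502 to 0.0508 for CCNE1 and -0.0221 to 0.23 for CCNE2. That of POLE was 0.00481 without both libraries numbered 3. The causes were not tested. Standard errors of about 0.15 log2 with 3 libraries a group limit what could be called.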
